A study of Mus musculus with 5 samples.

Results

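Cyclic AMP (cAMP) applied to the skin of mice was compared with an untreated control in RNA-seq of the whole epidermis, across 13014 of the 21667 genes listed and in 3 of the series' 5 libraries. Genes entered the comparison with 1 CPM (counts scaled to library size) or more in both cAMP libraries or in the control library. Of these, 9016 reached 1 CPM in all 3 libraries and 3223 in both cAMP libraries but not in the control. The remaining 775 reached it in the control but not in both cAMP libraries. At the edge of this filter, Tnfsfm13 was kept with 1.0013 CPM in its lower cAMP library, and Lce1f was left out with 0.9998 CPM in the control. The rule did not use the difference between the groups.

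The mice were C57BL/6 wildtype males at postnatal day 49, an age of 7 weeks, and their back skin was shaved. The cAMP group (libraries cAMP 1 and cAMP 2) received 1.325 mM cAMP, and a second treated group, used here for comparison (forskolin 1 and 2), received 10 µM forskolin, which switches on adenylyl cyclase. Both compounds were dissolved in DMSO, carried in a PLO lotion and applied 3 times over 5 days. The control is 1 library, labelled untreated. The labels do not say whether its mouse received DMSO or lotion, so compound and vehicle cannot be told apart in any comparison with it. No gene was deleted in any group. Nothing in the labels ties a library to its own mouse, so the p-values reflect spread among libraries and that spread may be technical.

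Cyclic AMP is made inside cells by adenylyl cyclases downstream of Gs-coupled receptors. It releases the catalytic subunits of protein kinase A, which phosphorylate CREB, a transcription factor that binds cAMP response elements in promoters of immediate-early, clock and feedback genes. The epidermis is a layered epithelium whose keratinocytes move from a basal through a spinous to a cornified layer, and total epidermis taken with trypsin also holds hair follicles and sebaceous glands, the lipid-producing glands of the follicle. The series asks what signalling through cAMP and Creb does in the activation of hair follicle stem cells.

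The libraries held an estimated 34200000 to 51700000 reads, and the control differed from the treated libraries in make-up. Mitochondrially encoded genes took 69.3% of the control's listed CPM and 43.2% to 58.1% of the treated libraries'. Nuclear genes other than pseudogenes and ribosomal RNA took 7.90% of the control and 26% to 38% of the treated libraries. Because of this, values below are CPM divided by a size factor taken from the median ratio over 11935 genes (0.325 for the control, 1.64 and 1.12 for cAMP 1 and 2), called rescaled CPM. A value listed under 1 read is also not firm: among genes that the other libraries placed at 20 reads or more, 8.42% were listed under 1 read in the control, and 5.32% and 5.96% in cAMP 1 and 2. The labelled tissue was matched by its keratins: the basal keratins Krt5 and Krt14 stood at 1646 and 833 rescaled CPM in the control, 1149 and 1501 in cAMP 1, and 718 and 948 in cAMP 2.

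**Figure D1:**
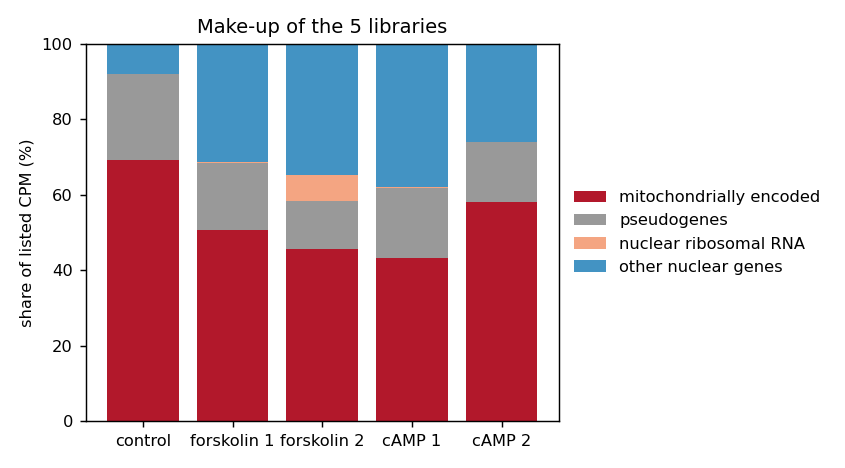
Share of the listed CPM (vertical axis, percent) taken by 4 kinds of gene in each of the 5 libraries (bars). The control has the tallest mitochondrial segment (69.3%) and the shortest segment of other nuclear genes (7.90%).

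Against the control, 2328 of 13014 genes (17.9%) were called higher with cAMP and 1293 (9.94%) lower, 3621 (27.8%) in all. A call means an adjusted p under 0.05 from limma, fitted on log2(rescaled CPM + 1) over all 5 libraries, with Benjamini-Hochberg adjustment over all genes tested. The median change of all genes was 0.11 on the log2 scale. Without the rescaling, on CPM as deposited, the median change was 1.73, and 8955 genes (68.8%) were called higher and 393 (3.02%) lower, so every direction below is relative to the median gene. Leaving out 1 cAMP or forskolin library left 1346 to 1427 genes called higher and 799 to 938 lower. Below, a call lost without either library of a group was lost when each of them was left out in turn. The filter also feeds the calls: of the 3223 genes under 1 CPM in the control, 1645 were called higher, and of the 775 under 1 CPM in a cAMP library, 679 were called lower. Among the 9016 genes at 1 CPM or more in all 3 libraries, 683 (7.58%) were called higher and 614 (6.81%) lower. No called gene had cAMP 1 and cAMP 2 on opposite sides of the control.

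**Figure D2:**
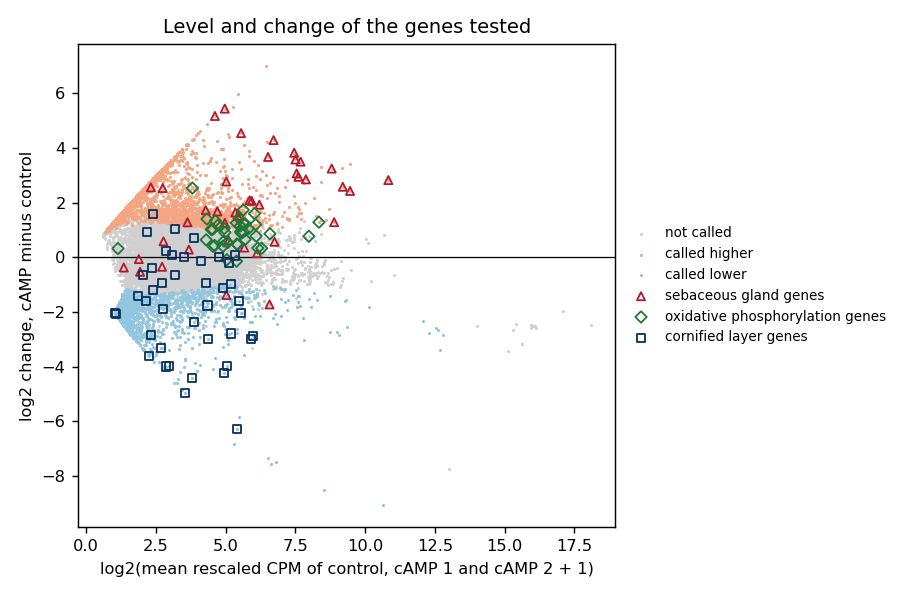
Log2 change (cAMP minus control, vertical axis) against log2 of the mean rescaled CPM + 1 of the 3 libraries (horizontal axis) for the 13014 genes tested. Colours mark the 2328 genes called higher and the 1293 called lower, and open symbols mark 3 gene lists: most sebaceous gland genes lie above 0 and most cornified layer genes below it.

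The 12 largest rises of genes well detected with cAMP are given first. All of them but Lpl were under 1 CPM in the control and entered through the cAMP libraries alone. On CPM as deposited, a gene does so only where both cAMP libraries are above the control. After the rescaling that order can differ. Pcx (chr19:4510472-4621752, plus strand, coordinates as the deposited table lists them), pyruvate carboxylase, which turns pyruvate into oxaloacetate, stood at 0.249 in the control and 61.8 and 50.3 in cAMP 1 and 2 (log2 change 5.51 ± 0.49, adjusted p = 0.00102). Lpl, the lipase that frees fatty acids from circulating lipoproteins, stood at 6.66 in the control and 120.0 and 185 in cAMP 1 and 2 (log2 change 4.29 ± 0.44, adjusted p = 0.00109). Acoxl, an acyl-CoA oxidase-like gene, stood at 1.93 in the control and 62.1 and 73.4 in cAMP 1 and 2 (log2 change 4.55 ± 0.59, adjusted p = 0.00142). For each of these genes both cAMP libraries lay far above the control and apart from it.

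Another 6 of the 12 largest rises were listed at 0 in the control. Lcn2 (chr2:32384633-32387797, minus strand), which encodes a secreted protein that withholds iron from bacteria, stood at 71.7 and 54.6 in cAMP 1 and 2, at least 292-fold higher than the 3 reads that a control value of 0 allows (adjusted p = 0.000514). Pparg (chr6:115361221-115490401, plus strand), the nuclear receptor that drives differentiation of sebaceous and fat cells, stood at 33.6 and 36.7, at least 180.1-fold higher (adjusted p = 0.000541). Amacr, an enzyme of branched-chain fatty acid breakdown, stood at 20.4 and 24.3, at least 109-fold higher. The bounds for Cyp2g1 (a cytochrome P450), Erdr1 and Xylt2 (an enzyme that starts proteoglycan chains) were 158-fold, 127-fold and 113-fold. These bounds cover counting error only, and the share of genes listed under 1 read in the control although well detected elsewhere, given above, applies to each of them. The remaining 3 rises were Igfbp2 (log2 change 4.51), which binds insulin-like growth factors, Clstn3 (4.41), a calsyntenin, and Adck4 (4.24), a kinase-like gene of coenzyme Q synthesis.

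The largest falls were led by late cornified envelope genes, which encode small proteins of the outermost layer. Lce1m (chr3:93017810-93019060, minus strand) stood at 122 in the control and 1.48 and 0 in cAMP 1 and 2 (log2 change -6.29 ± 0.60, adjusted p = 0.00106). Lce1a1 stood at 36.8 in the control and 0.877 and 0.663 in cAMP 1 and 2 (log2 change -4.42 ± 0.42, adjusted p = 0.00106). Lce1a2 stood at 31.7 in the control and 0.0745 and 0 in cAMP 1 and 2 (log2 change -4.98 ± 0.42, adjusted p = 0.000907), and the control was high and both cAMP libraries low for all 3. These genes are close copies of each other, so the split of reads among them is uncertain. Lor, loricrin, a main protein of the cornified envelope, stood at 85.9 in the control and 8.25 and 2.33 in cAMP 1 and 2 (log2 change -3.97 ± 0.57, adjusted p = 0.00192). Outside the envelope, Ebf1, a transcription factor, fell from 25.4 to 0.0947 and 0.0788 (log2 change -4.60 ± 0.51, adjusted p = 0.00112). The other 7 were the protease inhibitors Serpinb7 (-4.23) and Serpina12 (-4.21), the secreted guidance factor Sema3d (-4.10), the transcription factor Zfhx3 (-4.01), the adhesion receptor Adgrl3 (-3.85), the acyltransferase Mboat2 (-3.77) and the nuclease Dnase1l3 (-3.73), with log2 changes in parentheses. Lce1m, Lce1a1, Lce1a2, Ebf1, Serpina12, Mboat2 and Dnase1l3 were under 1 CPM in a cAMP library and entered through the control alone. A gene does so only where the control is above at least 1 cAMP library. All 12 falls also passed the threshold on CPM as deposited, where -2.00 was the log2 change of Lor.

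**Figure D3:**
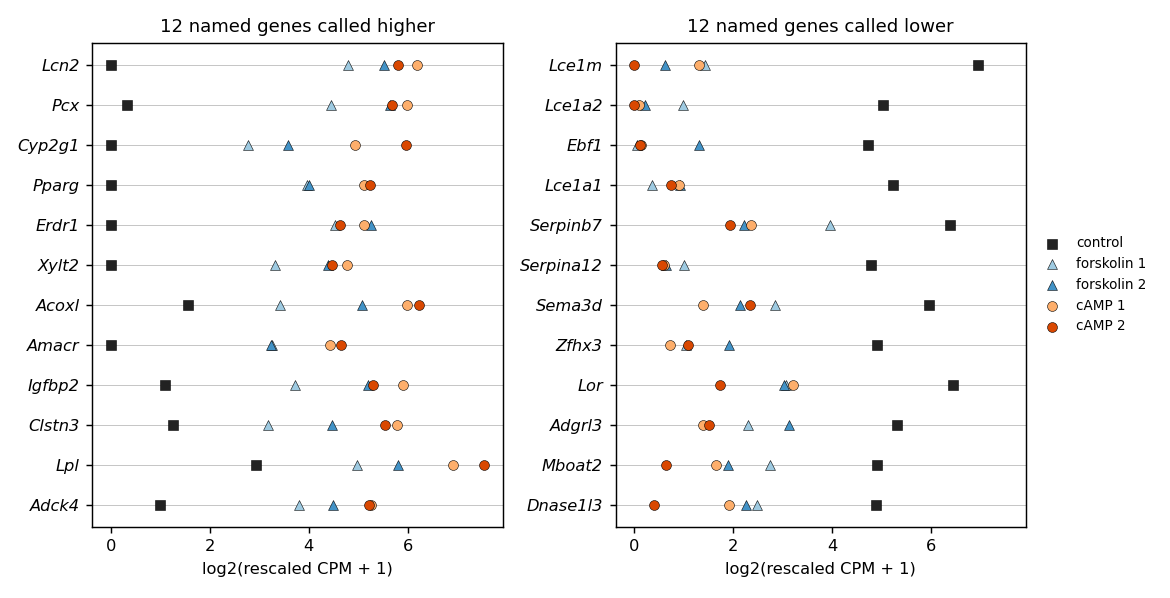
Log2(rescaled CPM + 1) (horizontal axis) of the 12 largest rises and the 12 largest falls in each library: control (square), forskolin (triangles) and cAMP (circles). In every row the control lies apart from both cAMP libraries, as the choice of these genes required, and from both forskolin libraries.

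Targets of CREB were mixed. Of 30 listed target genes, 21 were tested, 8 were called higher and 2 lower, against 17.9% and 9.94% of all genes, with a median log2 change of 0.88. Of the 16 at 1 CPM or more in all 3 libraries, 6 were higher and 1 lower. Leaving out any 1 library left 4 to 6 of the 21 called higher and 0 or 1 lower. The immediate-early and Nr4a transcription factors held most of the rises: of 10 tested, 5 were called higher and 1, Klf4, lower. The list's other lower call, that of Ppargc1a, was lost whichever cAMP or forskolin library was left out. Egr1 stood at 13.6 in the control and 89.7 and 83.2 in cAMP 1 and 2 (log2 change 2.58 ± 0.38, adjusted p = 0.00220), and Junb at 9.40 in the control and 45.2 and 22.7 in cAMP 1 and 2 (log2 change 1.67 ± 0.44, adjusted p = 0.0229). Both cAMP libraries exceeded the control for both genes. Fos stood at 5.48 in the control and 22 and 16.1 in cAMP 1 and 2 (log2 change 1.61 ± 0.43, adjusted p = 0.0244), a call lost without cAMP 1 or without either forskolin library, where the adjusted p reached 0.0926. The call of Junb was lost in the same fits. Fosb stood at 1.31 in the control and 14.8 and 6.79 in cAMP 1 and 2 and Cebpb, a factor of the C/EBP family, at 6.38 in the control and 41.5 and 35.1 in cAMP 1 and 2, and both were called higher, Fosb in 1 and Cebpb in 2 of the 4 fits with 1 library left out.

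Among the other targets, the clock gene Per1 (chr11:69095217-69109960, plus strand) rose from 6.79 to 42.8 and 35.2 (log2 change 2.36 ± 0.33, adjusted p = 0.00179), with both cAMP libraries well above the control. Dusp4, a phosphatase that turns off MAP kinases, was listed at 0 in the control and stood at 6.86 and 9.76 (adjusted p = 0.00318). Pde4b, a phosphodiesterase that degrades cAMP, stood at 5.29 in the control and 15.4 and 27.3 in cAMP 1 and 2 (log2 change 1.77 ± 0.43, adjusted p = 0.0171), and its adjusted p reached 0.0799 without cAMP 2 or either forskolin library. Klf4, a factor of keratinocyte differentiation, was called lower at 147 in the control and 53.6 and 42.4 in cAMP 1 and 2 (log2 change -1.60 ± 0.39, adjusted p = 0.0172), a call lost without either cAMP library, and its log2 change was 0.43 on CPM as deposited. The orphan nuclear receptor Nr4a1 stood at 4.98 in the control and 14.4 and 7.84 in cAMP 1 and 2 (log2 change 0.97 ± 0.65, adjusted p = 0.299), and Crem, whose short forms repress CREB targets, at 6.53 in the control and 2.37 and 1.17 in cAMP 1 and 2 (log2 change -1.48 ± 0.65, adjusted p = 0.122), and neither passed the test. The same holds for Per2 (-0.76 ± 0.36), the salt-inducible kinase Sik1 (-0.03 ± 0.33) and the phosphatase Dusp1 (-1.0 ± 0.45). Nr4a2, Pde4d and 7 more of the list's genes were not tested.

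The promoters of 6 CREB targets that rose are shown because they carry the letters through which CREB is known to bind. RefSeq promoter windows (GRCm38.p6, 250 bases before an annotated start) matched 9084 of 12999 tested symbols. Where a gene had several windows, a match in any of them counted. The windows shown for Per1 and Pde4b lie inside the genes as the deposited table lists them, so they precede internal starts. The 60 bases below are 5′ to 3′ on each gene's own strand, upstream of the start, and capitals mark the core of the cAMP response element, TGACG or its reverse complement CGTCA, nearest to the start.
Fos: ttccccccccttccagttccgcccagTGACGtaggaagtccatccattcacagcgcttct
Fosb: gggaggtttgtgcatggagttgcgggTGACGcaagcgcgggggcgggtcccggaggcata
Junb: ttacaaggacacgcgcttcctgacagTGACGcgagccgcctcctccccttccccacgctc
Cebpb: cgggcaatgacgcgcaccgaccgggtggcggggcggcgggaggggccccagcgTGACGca
Per1: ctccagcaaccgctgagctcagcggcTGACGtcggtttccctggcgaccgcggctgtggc
Pde4b: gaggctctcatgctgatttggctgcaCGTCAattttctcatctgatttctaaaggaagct
They lie at chr12:85473798-85473857 (plus strand), chr7:19310072-19310131 (minus strand), chr8:84978821-84978880 (minus strand), chr2:167688855-167688914 (plus strand), chr11:69099994-69100053 (plus strand) and chr4:102421495-102421554 (plus strand), and the marked core begins 66, 60, 106, 7, 132 and 34 bases before the start. The core was found on either strand in all 14 matched target promoters and in 2766 of the 9084 matched promoters of tested genes (30.4%). The list was drawn up as CREB targets, so this share is a description of it. The full element TGACGTCA, which holds the core on both strands, was found in 261 of the 9084 promoters (2.87%), in 45 of 1642 of genes called higher (2.74%) and in 13 of 710 of genes called lower (1.83%). Of the 14 target promoters it was found in that of Dusp1, whose change did not pass the test.

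The machinery that makes, senses and degrades cAMP was called about as often as all genes were. Of 52 listed genes, 36 were tested, 6 (16.7%) were called higher and 3 (8.33%) lower, against 17.9% and 9.94% of all genes, with a median change of 0.07. Fits without 1 library called 3 to 6 higher and 1 or 2 lower. Of the 26 at 1 CPM or more in all 3 libraries, 1 was higher and 2 lower. None of the 10 CREB family members and coactivators was called: Creb1 stood at 4.86 in the control and 10.3 and 12.8 in cAMP 1 and 2 (log2 change 1.09 ± 0.40, adjusted p = 0.0697), and both cAMP libraries were above the control. The regulatory subunit Prkar2b was listed near 0 in the control (0.125) and stood at 4.40 and 5.90 with cAMP (adjusted p = 0.00442). The cyclase Adcy3 (0 against 3.90 and 3.77) and the phosphodiesterase Pde1b (0 against 3.18 and 5.09) were also called higher from a control value of 0. Pde7b, another phosphodiesterase, fell from 4.86 to 0 and 0.0262 (adjusted p = 0.00127) and entered through the control alone. Pkib, an inhibitor of protein kinase A, fell from 18.4 to 4.40 and 4.54 (log2 change -1.82 ± 0.49, adjusted p = 0.0253), and the adenosine receptor Adora2b from 10.6 to 1.28 and 2.39 (log2 change -2.06 ± 0.43, adjusted p = 0.00942). With 1 library left out the call of Pkib was lost in each of the 4 fits (its log2 change was 0.016 on CPM as deposited), and that of Adora2b without either forskolin library.

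Genes of the sebaceous gland rose together. Of 42 listed genes 40 were tested, and 26 were called higher and 1 lower, against 17.9% and 9.94% of all genes. The median change was 2.0. Of the 33 at 1 CPM or more in all 3 libraries 21 were higher, and with 1 library left out 22 to 24 of the 40 were. Fabp5, which carries fatty acids in the cytosol, rose from 16.8 to 269.8 and 236 (log2 change 3.83 ± 0.32, adjusted p = 0.000907). Scd1, the desaturase that makes monounsaturated fatty acids, rose from 342 to 1774 and 3335 (log2 change 2.83 ± 0.57, adjusted p = 0.00764), and Elovl3, which lengthens fatty acids in the gland, from 20.7 to 264 and 255 (log2 change 3.58 ± 0.40, adjusted p = 0.00112). In all 3 both cAMP libraries were well above the control.

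Other steps of gland lipid handling moved the same way. Fatty acid synthase Fasn (log2 change 2.85 ± 0.52), the fatty alcohol enzyme Far2 (3.25 ± 0.41), the sterol acyltransferase Soat1 (3.50 ± 0.50), the triglyceride enzyme Dgat1 (2.77 ± 0.39) and the lipid droplet proteins Plin2 (2.95 ± 0.42) and Cidea (2.09 ± 0.34) were called higher. So was Myc (1.68 ± 0.34), a growth-promoting transcription factor. Not every member took part. Scd3 stood at 53.7 in the control and 16.4 and 24.3 in cAMP 1 and 2, Awat2, a wax ester enzyme, at 9.96 in the control and 9.54 and 15.9 in cAMP 1 and 2, and Fabp4, a fat cell fatty acid carrier, at 3.49 in the control and 0.923 and 4.01 in cAMP 1 and 2, and none of the 3 passed the test. Pla2g2f, a secreted phospholipase, was the 1 member called lower, at 175 in the control and 64.2 and 42.5 in cAMP 1 and 2 (log2 change -1.73 ± 0.36, adjusted p = 0.00945), with an adjusted p of 0.0521 without cAMP 2 and a log2 change of 0.31 on CPM as deposited. In bulk epidermis a larger share of gland cells and more RNA per gland cell cannot be told apart.

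The cholesterol pathway rose along much of its length. All 20 listed enzymes were tested, and 13 were called higher and 1 lower, against 17.9% and 9.94% of all genes. The median change was 1.45. Of the 19 at 1 CPM or more in all 3 libraries, 12 were higher. A fit without cAMP 1 called 13 higher, not all of them the same genes (Fdft1, squalene synthase, was lost), a fit without cAMP 2 called 7, and a fit without either forskolin library 6. Acat2, at the entry of the pathway, rose from 11.3 to 88.5 and 134 (log2 change 3.16 ± 0.37, adjusted p = 0.00123). Lss, which closes the sterol rings, rose from 14.1 to 101 and 142 (log2 change 3.0 ± 0.37, adjusted p = 0.00138), and the control was below both cAMP libraries for both genes. Tm7sf2, a sterol reductase, was listed at 0 in the control and stood at 10.7 and 12.9 (adjusted p = 0.00116). Of the last steps, Sc5d was called lower (-1.48 ± 0.43, a call lost without cAMP 1 or either forskolin library, and 0.31 on CPM as deposited), and Dhcr7 was not called (-0.85 ± 0.35).

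The promoter of Hmgcs1, an early enzyme of the pathway, is shown for the core letters of a sterol regulatory element, TCACCCCAC, in capitals.
Hmgcs1: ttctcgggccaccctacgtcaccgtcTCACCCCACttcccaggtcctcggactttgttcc
The window lies at chr13:119690188-119690247 (plus strand) of GRCm38.p6, and the core begins 137 bases before the start. Searched on both strands, these letters were in 59 of the 9084 promoters (0.649%), and Hmgcs1 was the 1 match among 15 promoters of the pathway. Hmgcs1 stood at 81.1 in the control and 271 and 499 in cAMP 1 and 2 (adjusted p = 0.00673, up to 0.0521 without 1 forskolin library), the control below both cAMP libraries.

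Of 16 tested genes that control sterol supply, 5 were called higher and 1 lower, against 17.9% and 9.94% of all genes. Of the 14 at 1 CPM or more in all 3 libraries 3 were higher, and with 1 library left out 3 to 5 of the 16 were. Srebf1, the transcription factor of fatty acid synthesis genes, rose from 25.9 to 122 and 116 (log2 change 2.16 ± 0.39, adjusted p = 0.00484), while its relative Srebf2 stood at 39 in the control and 64.1 and 57.1 in cAMP 1 and 2 (log2 change 0.62 ± 0.35, adjusted p = 0.213). Abca1, which exports cholesterol, rose from 4.86 to 51.9 and 110.3 (log2 change 3.71 ± 0.49, adjusted p = 0.00157). Abcg1, another exporter, was called lower, from 11.2 to 2.15 and 1.71 (log2 change -2.06 ± 0.42, adjusted p = 0.00797).

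Genes of fatty acid breakdown rose as well. Of 30 listed peroxisomal and mitochondrial oxidation genes 28 were tested, and 19 were called higher and 0 lower, against 17.9% and 9.94% of all genes. The median change was 1.33, and 13 of the 21 at 1 CPM or more in all 3 libraries were higher. In fits without 1 library 10 to 13 of the 28 were. Hsd17b4, a peroxisomal oxidation enzyme, rose from 21.7 to 76.3 and 87 (log2 change 1.86 ± 0.33, adjusted p = 0.00470). Cpt2, which passes fatty acids into mitochondrial oxidation, was listed at 0.101 in the control and at 17.4 and 15.1 with cAMP (adjusted p = 0.00110), and Ehhadh, a peroxisomal enzyme, at 0 against 4.30 and 6.45 (adjusted p = 0.00288). Cpt1a, the gate enzyme for mitochondrial entry, stood at 37.9 in the control and 19 and 23.5 in cAMP 1 and 2 (log2 change -0.81 ± 0.37, adjusted p = 0.136), with the control above both cAMP libraries.

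Nuclear genes of oxidative phosphorylation rose in part. All 38 listed were tested, and 14 were called higher and 0 lower, against 17.9% and 9.94% of all genes. The median change was 0.92. Of 36 at 1 CPM or more in all 3 libraries 13 were higher. The calls were not firm: 2 genes were called without cAMP 1, 7 without cAMP 2 and 3 without either forskolin library. By complex, 2 of 12 tested genes of complex I, 3 of 4 of complex II and 4 of 6 of complex III were called. So were 2 of 10 of complex IV with cytochrome c and 3 of 6 of the ATP synthase. The shares of complex I and complex IV were near that of all genes. Sdha, the catalytic subunit of complex II, rose from 18.4 to 62.2 and 64.9 (log2 change 1.74 ± 0.32, adjusted p = 0.00527). Ndufa1, a complex I subunit, rose from 2.30 to 20.9 and 15.7 (log2 change 2.53 ± 0.39, adjusted p = 0.00249). It was at 0.749 CPM as deposited in the control and entered through the cAMP libraries alone. Uqcrc2, a core subunit of complex III, stood at 20.2 in the control and 55.8 and 55.3 in cAMP 1 and 2 (log2 change 1.42 ± 0.32, adjusted p = 0.0128), and Atp5d, a subunit of the ATP synthase, at 26.2 in the control and 103 and 64.5 in cAMP 1 and 2 (log2 change 1.60 ± 0.39, adjusted p = 0.0177), and their adjusted p reached 0.0522 without either cAMP library for Uqcrc2, and 0.0893 without cAMP 1 or either forskolin library for Atp5d. Of 15 genes of the mitochondrial genome 4 were called lower, with a median change of -2.59, but 0 to 9 were with 1 library left out, and none was on CPM as deposited.

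Genes of glycolysis and pyruvate handling were called in part. Of 28 tested genes 8 were called higher and 0 lower, against 17.9% and 9.94% of all genes. The 8 were 5 of 13 in pyruvate and lactate handling and 3 of 15 in glycolysis, the latter a share near that of all genes. Of the 25 at 1 CPM or more in all 3 libraries 6 were higher, and with 1 library left out 3 or 4 of the 28 were. Beside Pcx, the lactate and pyruvate carrier Slc16a1 rose from 4.61 to 34.7 and 55.1 (log2 change 3.0 ± 0.39, adjusted p = 0.00145). Ldhb, a lactate dehydrogenase subunit, rose from 24.5 to 108 and 85.7 (log2 change 1.93 ± 0.42, adjusted p = 0.0104), whereas Ldha, the other main subunit, stood at 120.0 in the control and 141 and 113 in cAMP 1 and 2 (log2 change 0.07 ± 0.34, adjusted p = 0.899). For Ldha the control lay between the cAMP libraries. Dlat, part of the pyruvate dehydrogenase complex, stood at 13.1 in the control and 34.1 and 47.2 in cAMP 1 and 2 (log2 change 1.55 ± 0.36, adjusted p = 0.0143). With 1 library left out, the adjusted p reached 0.0618 for Ldhb (without cAMP 1) and 0.0653 for Dlat (without cAMP 2 or either forskolin library).

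In the citric acid cycle and citrate export, 8 of 19 genes were called higher and 0 lower (7 of the 18 at 1 CPM or more in all 3 libraries), with a median of 0.89 and 4 to 6 calls when 1 library was left out. Over all genes tested, 17.9% were called higher and 9.94% lower. Aco1, the cytosolic aconitase, rose from 6.10 to 59.7 and 70.9 (log2 change 3.22 ± 0.41, adjusted p = 0.00142). Slc25a1, which carries citrate out of mitochondria for lipid synthesis, rose from 26.1 to 144 and 168 (log2 change 2.53 ± 0.44, adjusted p = 0.00431), and Acly, which splits that citrate into acetyl-CoA, from 74.4 to 254 and 359 (log2 change 2.01 ± 0.42, adjusted p = 0.00910). Idh3g, a subunit of a cycle dehydrogenase, rose from 11.8 to 43.1 and 39.5 (log2 change 1.73 ± 0.36, adjusted p = 0.00860), and all 4 had both cAMP libraries above the control. The adjusted p of Acly was 0.0528 without cAMP 2.

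Genes of the cornified layer fell. Of 54 listed genes 42 were tested, 24 were called lower and 1 higher, against 9.94% and 17.9% of all genes, and the median change was -1.60. Of the 30 at 1 CPM or more in all 3 libraries, 14 were lower and 0 higher. Another 10 members entered through the control alone, which a gene does only where the control is above at least 1 cAMP library. Between 19 and 23 were lower with 1 library left out. On CPM as deposited the direction of the list is not fixed: 12 were called lower and 11 higher. Of the 19 envelope protein genes 15 were called lower, but 10 of the 19 entered through the control alone, and of the 9 at 1 CPM or more in all 3 libraries 5 were lower. Of 12 crosslinking and proteolysis genes 7 were called lower, and of 11 barrier lipid enzymes 2.

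**Figure D4:**
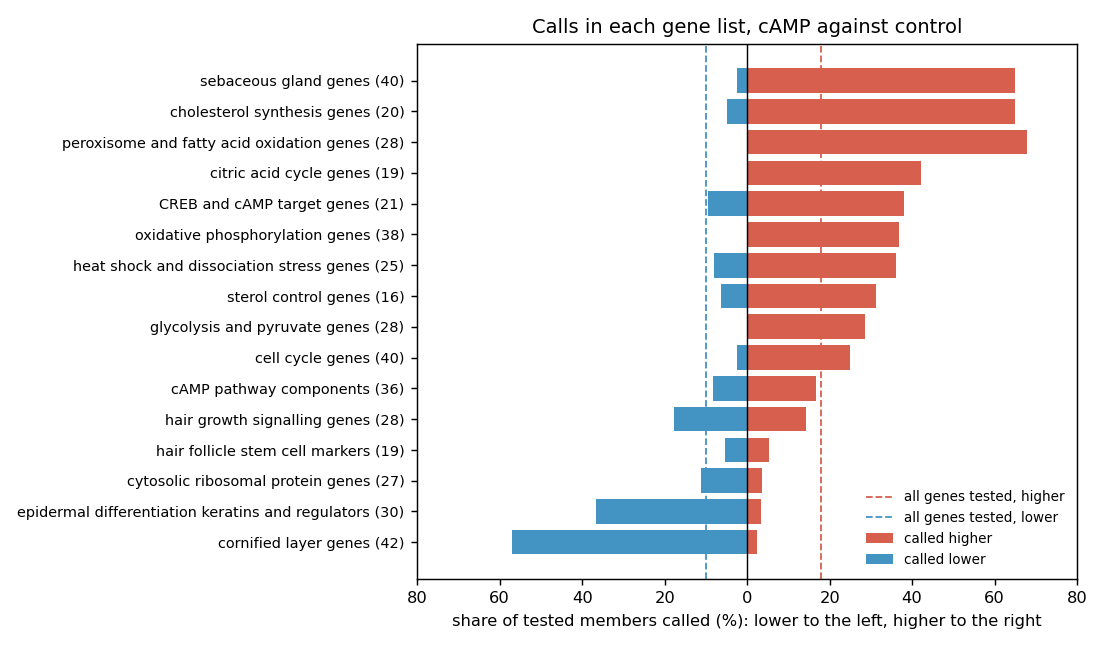
Percent of the tested members of 16 gene lists (number tested in parentheses) called higher (bars to the right) or lower (bars to the left) with cAMP against the control, with dashed lines at the shares over all genes tested, 17.9% and 9.94%. Lipid lists reach farthest to the right and the cornified layer farthest to the left.

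Ivl, involucrin, stood at 82.7 in the control and 16.8 and 7.24 in cAMP 1 and 2 (log2 change -2.79 ± 0.47, adjusted p = 0.00372), and Flg2, a filaggrin-like protein, at 14.9 in the control and 0.568 and 0.603 in cAMP 1 and 2 (log2 change -3.32 ± 0.37, adjusted p = 0.00112). Flg2 entered through the control alone. The proteases and inhibitors that time the shedding of dead cells moved alike. The kallikrein protease Klk5 stood at 48.7 in the control and 4.96 and 5.64 in cAMP 1 and 2 (log2 change -2.98 ± 0.43, adjusted p = 0.00195), and its inhibitor Spink5 at 149 in the control and 18.5 and 20.5 in cAMP 1 and 2 (log2 change -2.87 ± 0.32, adjusted p = 0.00112). Cdsn, an adhesive protein of the same layer, stood at 144 in the control and 18.7 and 16.1 in cAMP 1 and 2 (log2 change -2.99 ± 0.33, adjusted p = 0.00112). In all 5 the control was the highest of the 3 libraries, by far. Tgm1, a crosslinking enzyme, was the 1 member called higher, at 1.25 in the control and 6.15 and 5.27 in cAMP 1 and 2 (log2 change 1.58 ± 0.43, adjusted p = 0.0250), a call lost without cAMP 1 or either forskolin library, and Casp14, a protease of the same layer, stood at 25 in the control and 34.6 and 18 in cAMP 1 and 2 (log2 change 0.00 ± 0.42, adjusted p = 0.998). The small proline-rich genes Sprr1a (0.07 ± 0.37), Sprr1b (0.08 ± 0.58) and Sprr4 (-0.66 ± 0.50) did not pass the test.

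Spinous layer genes fell as well. Of 30 tested keratins and regulators 11 were called lower and 1 higher, against 9.94% and 17.9% of all genes, with a median of -0.82. On CPM as deposited none was called lower and 13 were called higher, so the falls are relative to the median gene. With 1 library left out 5 to 9 were lower, the 5 without cAMP 2. By layer, 6 of 9 spinous genes, 3 of 9 basal genes, 2 of 8 regulators and 0 of 4 stress keratins were lower. Dsc1 and Dsg1a, cadherins of the spinous and granular layers, fell from 82.1 to 7.51 and 8.92 (log2 change -3.18 ± 0.35, adjusted p = 0.00112) and from 531 to 58 and 72.2 (log2 change -3.02 ± 0.41, adjusted p = 0.00170). Sbsn, a secreted protein of these layers, fell from 1258 to 212 and 144 (log2 change -2.84 ± 0.39, adjusted p = 0.00167), and the keratin Krt77 from 1451 to 316 and 197 (log2 change -2.53 ± 0.45, adjusted p = 0.00456). The control exceeded both cAMP libraries in all 4. Krt10, a main spinous keratin, was called lower (log2 change -1.81 ± 0.46), a call lost without cAMP 2 or either forskolin library and a change of 0.24 on CPM as deposited, while its partner Krt1 (-1.01 ± 0.50) was not called.

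Markers of hair follicle stem cells stayed near the median gene. Of 19 tested, 1 was called higher and 1 lower, against 17.9% and 9.94% of all genes, with a median change of 0.07. Of the 14 at 1 CPM or more in all 3 libraries, 0 were higher and 0 lower. The called genes, Tcf7l1 and Tbx1, entered through the control alone and through the cAMP libraries alone. Krt15 stood at 804 in the control and 583 and 331 in cAMP 1 and 2 (log2 change -0.87 ± 0.48, adjusted p = 0.206). Cd34 stood at 11.2 in the control and 9.97 and 6.30 in cAMP 1 and 2 (log2 change -0.45 ± 0.46, adjusted p = 0.502), and Lgr5 at 2.11 in the control and 2.13 and 3.07 in cAMP 1 and 2 (log2 change 0.20 ± 0.48, adjusted p = 0.789). The control was above both cAMP libraries for Krt15 and Cd34 and just below them for Lgr5, and none of the 3 passed the test. On CPM as deposited Krt15 and Cd34 were above the control instead (log2 change 1.18 and 1.34). Tcf7l1, a repressor of Wnt targets, fell from 11.2 to 0.461 and 0.921 (log2 change -2.87 ± 0.51, adjusted p = 0.00444), and Tbx1 was called higher from a control value of 0 (4.93 and 1.86, adjusted p = 0.0255), a call lost without cAMP 1 or either forskolin library (adjusted p up to 0.114).

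Of 47 genes of hair growth signalling 28 were tested, 4 were called higher and 5 lower, against 17.9% and 9.94% of all genes. Of the 20 at 1 CPM or more in all 3 libraries 0 were higher and 4 lower, so the 4 rises were all among genes that entered through the cAMP libraries alone. With 1 library left out 1 to 4 were higher and 2 to 7 lower, and on CPM as deposited 14 were higher and 0 lower. Lef1, the Wnt effector of the hair germ, did not reach the filter, and Axin2, a Wnt target (-0.28 ± 0.40), and Gli1, a Hedgehog target (-0.34 ± 0.62), were not called. The signals Bmp2, which keeps follicle stem cells at rest, and Bmp4 stood at 8.90 in the control and 1.04 and 0.682 in cAMP 1 and 2 (log2 change -2.42 ± 0.40, adjusted p = 0.00348) and at 9.31 in the control and 0.828 and 1.60 in cAMP 1 and 2 (log2 change -2.24 ± 0.47, adjusted p = 0.00962). Bmp2 was at 0.761 CPM as deposited in cAMP 2 and entered through the control alone. Wnt7b, a Wnt signal, stood at 27.8 in the control and 5.18 and 1.94 in cAMP 1 and 2 (log2 change -2.76 ± 0.51, adjusted p = 0.00527), and all 3 were highest in the control. Without either forskolin library the adjusted p of Wnt7b reached 0.0534. The receptor Tgfbr1 was listed at 0.10 in the control and stood at 4.27 and 8.81 (adjusted p = 0.00484).

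Of 40 tested cell cycle genes 10 were called higher and 1 lower, against 17.9% and 9.94% of all genes. Of the 31 at 1 CPM or more in all 3 libraries 3 were higher, a share near the 7.58% of all genes at that level. The other 9 entered through the cAMP libraries alone. With 1 library left out 5 to 8 of the 40 were higher. Mki67, a marker of cycling cells, rose from 17 to 56.1 and 62.2 (log2 change 1.74 ± 0.32, adjusted p = 0.00532), with both cAMP libraries above the control. The mitotic genes Cenpf and Ccnb2 were listed at 0 in the control and stood at 8.0 and 9.81, and at 10.1 and 6.22 (adjusted p = 0.00142 and 0.00210). Both entered through the cAMP libraries alone. Ccnd1, cyclin D1, was the 1 member called lower, at 54.8 in the control and 14.2 and 15.6 in cAMP 1 and 2 (log2 change -1.81 ± 0.37, adjusted p = 0.00828; 0.17 on CPM as deposited), and Pcna, the replication clamp, stood at 13 in the control and 17 and 9.42 in cAMP 1 and 2 (log2 change -0.03 ± 0.42, adjusted p = 0.967).

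Stress genes of tissue dissociation overlap the CREB targets. Of 13 immediate-early stress genes 8 were called higher, against 17.9% of all genes, and 0 lower. Of the 9 at 1 CPM or more in all 3 libraries 4 were higher, and the other 4 entered through the cAMP libraries alone. Of the 8 called, 4 were also on the list of CREB targets (Fos, Fosb, Junb and Egr1), and the part of overnight trypsin in them was not tested. Ier2, an immediate-early gene outside the CREB list, rose from 2.24 to 34.1 and 18.4 (log2 change 3.01 ± 0.44, adjusted p = 0.00200), and Socs3, a feedback inhibitor of cytokine signals, from 1.81 to 20.6 and 10.5 (log2 change 2.49 ± 0.45, adjusted p = 0.00514). Ier2 and Socs3 both entered through the cAMP libraries alone. Chaperones were split, with 1 of 12 higher (Hspd1, 1.94 ± 0.33) and 2 lower. Of the alarm and antimicrobial genes 8 of 23 were tested, and 3 were called higher and 0 lower, against 17.9% and 9.94% of all genes. Of the 6 at 1 CPM or more in all 3 libraries 1 was higher, against 7.58% of all genes at that level. Beside Lcn2, S100a8 was called higher from a control value of 0 (8.33 and 6.58, adjusted p = 0.00171) and Stfa3, a stefin, rose from 5.60 to 46 and 25 (log2 change 2.40 ± 0.42, adjusted p = 0.00422).

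Markers of other cell types were given the same count, to be set beside the 17.9% higher and 9.94% lower of all genes. Of 13 tested fibroblast markers 0 were called higher and 3 lower, and their summed level was 674 rescaled CPM in the control and 159 and 355 in cAMP 1 and 2. Fn1, Dcn and Sparc, all matrix genes, were the 3 lower, at 18.5 in the control and 3.22 and 3.78 in cAMP 1 and 2, 50.1 in the control and 4.69 and 16.3 in cAMP 1 and 2 and 122 in the control and 12.8 and 39.8 in cAMP 1 and 2; the call of Fn1 was lost without either cAMP library, and those of Dcn and Sparc without cAMP 1 or either forskolin library. Of 10 adipocyte markers 5 were tested, 2 higher and 1 lower, at a summed level of 22.2 in the control and 27.8 and 22.6 in cAMP 1 and 2. The 2 rises, Adrb3 and Cidec, were listed at 0 in the control and entered through the cAMP libraries alone. The defining fat cell genes Adipoq, Lep, Plin1 and Retn did not reach the filter. None of 16 muscle, 10 T cell or 8 melanocyte markers was called. Muscle markers summed to 319 in the control and 93.8 and 223 with cAMP, T cell markers to 421, 372 and 402, and melanocyte markers to 88.9, 156 and 233. Of 10 Langerhans markers 1 was higher. The part of these cell types in the results above was not tested.

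The 2 cAMP libraries were close for most genes. Their median distance was 0.357 on the log2 scale, and 913 of 13014 genes (7.02%) lay more than 1 unit apart, 471 higher in cAMP 1 and 442 in cAMP 2. Of the 3621 called genes 202 lay that far apart. Among the widest gaps, the collagen gene Col1a2 stood at 23.4 in cAMP 1 and 87.5 in cAMP 2, next to Col3a1, Col1a1 and Sparc, while Cst6 and Krt16 were higher in cAMP 1. These were picked for their gap.

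Against forskolin, at the doses used here, no gene was called with an adjusted p under 0.05 (0% of 13014), and 1393 genes had an unadjusted p under 0.05. This count of 0 depends on the setting: a filter of 10 CPM gave 143 genes higher and 32 lower, and a replicate block, although the numbers do not pair the libraries, 155 and 76. The doses and the kind of agent differ, so the values are given side by side. The comparison does not use the control, but the differences of cAMP and of forskolin from the control share that library. In 2825 genes (21.7%) both cAMP libraries lay above both forskolin libraries, and in 2620 (20.1%) below. Of the lipid lists, 27 of 40 sebaceous gland genes and 18 of 20 cholesterol enzymes were above and 4 and 0 below, and of 38 oxidative phosphorylation genes 36 were above and 0 below. Of the 21 CREB targets 2 were above and 8 below.

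**Figure D5:**
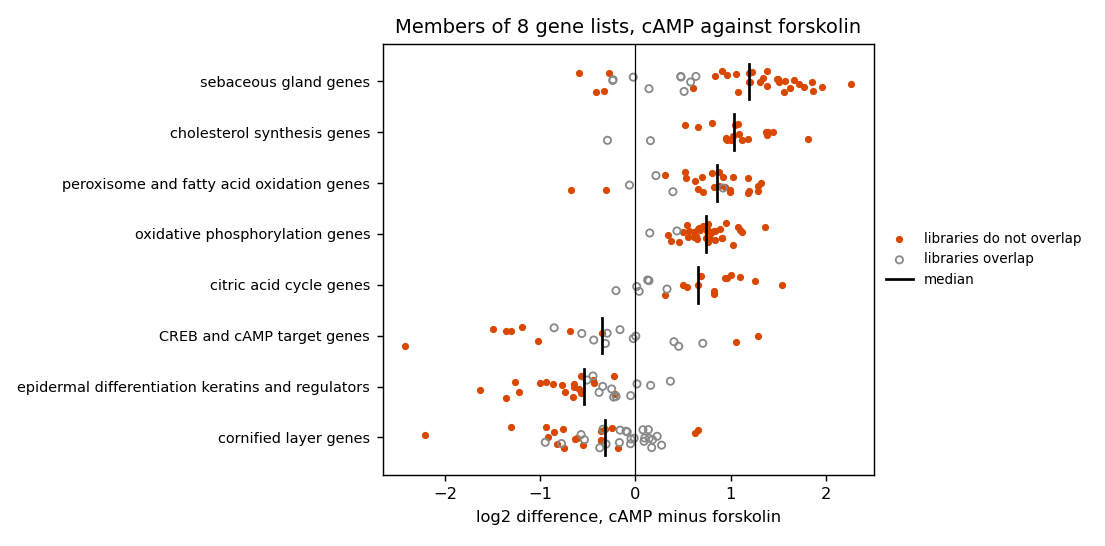
Log2 difference (cAMP minus forskolin, horizontal axis) of the members of 8 gene lists, 1 point per gene, with the median of each list as a bar. Filled points mark genes whose cAMP and forskolin libraries do not overlap, and points of the lipid and mitochondrial lists lie mostly to the right of 0.

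Among the smallest unadjusted p-values were those of lipid genes, named here because of them. Elovl3 stood at 49.1 and 89.4 with forskolin and 264 and 255 with cAMP (log2 difference 1.95 ± 0.33, adjusted p = 0.165). Hsd3b6, a steroid dehydrogenase, stood at 10.5 and 12.2 against 44.8 and 40.8 (1.83 ± 0.29, adjusted p = 0.165), and Lpl at 30.3 and 54.6 against 120.0 and 185 (adjusted p = 0.206). The groups did not overlap for any of the 3, and none passed the adjustment in this fit. Pparg stood at 14.6 and 15 with forskolin, below both cAMP libraries, and Pcx at 20.8 and 49.1, also below. Per1 stood at 77 and 82.5 with forskolin, above both cAMP libraries (log2 difference -1.02 ± 0.27), and the orphan receptor Nr4a3 at 30.4 and 8.45 against 2.82 and 1.73 with cAMP. For the cornified genes Lor and Ivl, forskolin gave 7.35 and 7.15, and 24.4 and 19.7, far below the control's 85.9 and 82.7.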

How the data were processed

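RNA-seq of total mouse epidermis was used from 5 libraries: 1 untreated control, 2 with forskolin and 2 with cAMP. The submitters' processing notes name Partek, STAR and bcl2fastq 2.17. Settings, annotation and genome build are not given in the sources used here. Transcripts were deposited in CPM (counts scaled by library size). No header states this unit, and it was inferred from the deposited column sums. In place of 0 the table held a small offset. Taken as 0.0001 read, this offset gave the estimated depths. Of low gene sums (0.5 to 20 reads), 59.6% to 75.7% then fell within 0.1 of a whole read, so counts could not be recovered and no count model was run.

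Transcript rows were summed per gene identifier, and 3 rows without one were left out (0.0049% of the control). Values were divided by median-of-ratios size factors. limma 3.58.1 in R 4.3.3 was fitted with a trend on log2(rescaled CPM + 1), a pseudocount that understates changes of low genes, with all 5 libraries in 3 groups, 2-sided, and Benjamini-Hochberg adjustment over 13014 genes. With 2 residual and 6.97 prior degrees of freedom, the single control was assumed to vary as the treated libraries did. The floor of 3 reads was 0.0607 CPM, or 0.187 rescaled CPM, in the control, and covers counting error only. ± is the standard error of the fitted difference. The fit was tested on simulated data. Promoters were searched with Python 3.11.15.

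Genes named were the 12 largest called rises and falls with 20 rescaled CPM or more in the higher group and no predicted, pseudogene or mitochondrial names, up to 4 members of each list with the smallest p, and a fixed set: Creb1, Crem, Per1, Nr4a1, Fos, Pparg, Lgr5, Cd34, Krt15, Lef1, Axin2, Gli1, Mki67, Ldha and Pcx. For the 12 rises and falls, both cAMP libraries also had to lie on the same side of the control. Up to 5 in each direction called between cAMP and forskolin were also to be named, and none was called. Other named genes were chosen after their values were seen. Some genes that the rule names are not reported here. The comparison, the gene lists and this rule were chosen with earlier results of these data known. Of 7 gene identifiers that share the symbol Flg, the one with the highest mean was used. Alternatives covered the scaling, pseudocount, filter, libraries fitted and each library left out.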

Additional observations from a re-analysis of the deposited data

Results flagged for a closer look

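Rows without a gene identifier, outside the tests, held signal in the cAMP libraries above the control. Yam1 was listed at 44.8 CPM in the control, 401 and 631 CPM in cAMP 1 and 2, and 236 CPM in forskolin 1, but at the offset for 0 in forskolin 2. The pseudogene Hspa9-ps1 was listed at 0.0647 CPM in the control, 3.85 CPM in cAMP 1 and 0.924 CPM in cAMP 2. Neither was tested, and these CPM are as deposited, without the rescaling.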

How the results depend on the processing

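Calls against the control depended on the scaling and the filter. On CPM as deposited 8955 genes were higher and 393 lower with cAMP. Quantile normalization gave 1194 higher and 1185 lower, a filter of 10 CPM gave 1143 higher and 361 lower among 5899 genes, no filter gave 946 higher and 1418 lower, the reverse of the balance reported, and a fit of the cAMP and control libraries alone gave 1377 higher and 775 lower. With 1 library left out 1346 to 1427 were higher and 799 to 938 lower. Against forskolin, CPM as deposited gave 1 gene higher and 6 lower, a pseudocount of 0.1 gave 1 lower, the filter of 10 CPM gave 143 higher and 32 lower, and each fit with 1 library left out gave 0. The cause of these shifts was not tested.

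Many single genes turned direction as deposited. Among them Rpl18 (0.64), Rps24 (0.84), Nkg7 (1.48), Ptprc (1.53), Thy1 (1.70), Axin2 (1.54), Krt15 (1.18), Cd34 (1.34), Gli1 (1.03), Crem (0.10) and Mbp (0.016) were above the control on the log2 scale, and mt-Rnr2 (0.18) was under quantile normalization.

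Same-numbered cAMP and forskolin libraries did not deviate together (r = -0.0697 across genes), so the numbers were not taken as pairs. A replicate block between cAMP and forskolin gave 155 genes higher and 76 lower. No paired analysis was possible against the control because it has 1 library. Depth limits the reading of values under 3 reads, and the 1 control library allows no spread of its own to be measured.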

Other observations

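Cytosolic ribosomal protein genes had a median log2 change of -0.67 with cAMP after the rescaling. Of 27 tested, 1 was called higher and 3 (11.1%) lower, a share near the 9.94% of all genes. On CPM as deposited 14 were called higher and 0 lower. Rpl3, a large-subunit protein, was called higher, at 9.38 rescaled CPM in the control and 46.0 and 32.9 in cAMP 1 and 2. Rpl18 stood at 79.0, 29.7 and 30.3 and was called lower, a call lost without either cAMP library. The other 2 lower calls, Rpl5 and Rps24, were lost in 3 and in all 4 of the fits with 1 library left out. Against forskolin, 11 of the 27 lay above in both cAMP libraries and 0 below. Many copies of these genes exist as pseudogenes, so their counts are uncertain.

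Of 709 tested pseudogenes 121 were called higher and 146 lower with cAMP, and of 403 long noncoding genes 109 each way, against 2083 and 944 of 11728 protein-coding genes.

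The erythroid marker Hba-a2, a globin gene, was listed at 12.7 rescaled CPM in the control and 0.882 and 0.00113 in cAMP 1 and 2, and the mast cell protease Mcpt4 at 4.42, 0.379 and 0.0348. Both entered through the control alone. They were called lower (limma, adjusted p = 0.00788 and 0.00232), and the adjusted p of Hba-a2 was 0.0540 without cAMP 2. Mbp, a myelin gene, stood at 29.3, 6.15 and 8.26 and was called lower after rescaling, while on CPM as deposited its log2 change was 0.016.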
